A study of Drosophila melanogaster with 12 samples.

Results

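The effect of depleting CP190 before any hormone was added was read from 4 of 12 arrays, across all 16637 transcripts on the array. The samples were chosen by their labels. They are 2 arrays of Kc cells that received RNAi against CP190 and 2 arrays of Kc cells that received RNAi against beta-galactosidase, which served as the control knockdown, all at 0 h of 20-hydroxyecdysone (20HE). The other 8 arrays carry both knockdowns at 3 h and 48 h of 20HE, with 2 biological replicates in each of 6 groups. Kc is an embryonic Drosophila melanogaster line grown here in serum-free medium, and all groups share that line and medium. The labels do not say whether the replicates, or the 0, 3 and 48 h samples of a replicate number, came from separate cultures. The p-values therefore measure the spread between these samples. How long the RNAi lasted is not given in the sources used here.

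CP190 is a zinc finger protein with a BTB domain that sits at Drosophila insulators. It is recruited by DNA-binding factors such as Su(Hw), dCTCF and BEAF-32, and it is known for joining insulator sites into chromatin contacts that separate regulatory domains. 20HE is the steroid that drives moulting and metamorphosis. Kc cells respond to it, and the 0 h samples show the cells before that response begins.

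Values are the authors' RMA intensities on a linear scale, tested here as log2 differences, CP190 RNAi minus control RNAi, with limma over all 12 arrays. A transcript passed the test at a Benjamini-Hochberg adjusted p under 0.05 over all 16637 transcripts. The random-sequence control, which has no target, read between 413 and 425 on the 12 arrays. Transcripts within 1.5-fold of it were treated as near background and made up 37.5 to 38.7% of transcripts on the CP190 0 h arrays and 39.5% on both control 0 h arrays. The replicates correlated across transcripts by 0.995 in CP190 RNAi and by 0.994 in control RNAi at 0 h. The deposited table holds FlyBase transcript identifiers without gene names. The gene table used here paired 16 of them with 1 gene each and 28 with more than 1. The Cp190 gene was not among them, so the depletion of its own RNA was not analysed here, and neither were the 28 marker genes of hemocytes, crystal cells, neurons, germ cells and muscle listed to check the cells.

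Without hormone, CP190 RNAi changed 1221 transcripts, or 7.34% of those tested. Of these, 740 were higher (4.45%) and 481 were lower (2.89%) than in control RNAi. The rises had the larger median. The median log2 difference was 0.65 among the higher transcripts, with the middle 50% between 0.47 and 0.90, and -0.46 among the lower ones, with the middle 50% between -0.60 and -0.37. At least 2-fold differences numbered 145 higher (0.872% of those tested) and 44 lower (0.264%). At least 4-fold differences numbered 7 higher and 1 lower, which was FBtr0086519. In every called transcript the arms did not overlap, as in 46.2% of all transcripts. The calls were made on these same arrays, so neither this nor the following medians by replicate are separate support. The median over the 740 was 0.66 between the arrays of replicate 1 and 0.62 between those of replicate 2. Over the 481 it was -0.42 between the arrays of replicate 1 and -0.51 between those of replicate 2.

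The number of calls depended on the fit. With the replicate number as a block, 1330 were higher (7.99%) and 1284 lower (7.72%), 15.7% of those tested. Rises and falls were thus nearly even in number in that fit. With only the 4 arrays compared, 416 were higher and 137 lower, and the totals were 537 when CP190 0 h replicate 1 was left out, 763 when replicate 2 of that group was, and 649 when control 0 h replicate 2 was. Among differences of at least 2-fold, rises outnumbered falls in every fit. Many of the 19 alternatives keep the same 0 h differences, such as the block and the fits without a 3 h or 48 h array. Those could hardly alter this excess. Quantile normalisation gave 142 higher and 45 lower at that size. Subtraction of the random-sequence control gave 281 higher and 79 lower at that size. The centring of each array on its median gave 138 higher and 46 lower at that size, and 672 higher and 638 lower among all calls.

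**Figure D1:**
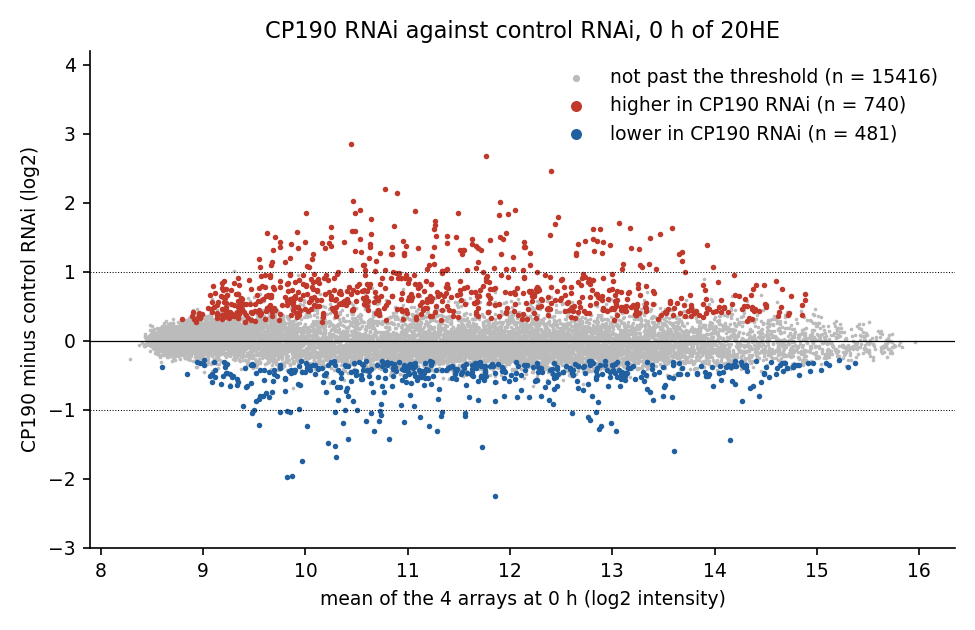
Log2 difference between CP190 RNAi and control RNAi at 0 h against the mean log2 intensity of the 4 arrays, 1 point per transcript, with dotted lines at 2-fold. Past the threshold, 740 transcripts were higher (red) and 481 lower (blue), and more red than blue points lie beyond the dotted lines (145 against 44).

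Calls were spread over the range of expression above background. Of the 6269 transcripts whose mean over 12 arrays lay within 1.5-fold of the random-sequence control, 53 were higher and 18 lower, 1.13% in all. Of 2798 transcripts at 1.5 to 4-fold above it, 218 were higher and 105 lower (11.5%). The share was 11.1% of 4420 transcripts at 4 to 16-fold and 10.6% of 3150 transcripts over 16-fold. Higher and lower calls were 7.79% and 3.75% of transcripts at 1.5 to 4-fold, 6.47% and 4.66% at 4 to 16-fold, and 5.81% and 4.83% over 16-fold. With the replicate block, the calls were 357 higher and 265 lower at 1.5 to 4-fold, 494 and 593 at 4 to 16-fold, and 358 and 393 over 16-fold. Near background they were 121 higher and 33 lower in that fit. At least 2-fold differences in the fit without the block numbered 36 higher and 14 lower at 1.5 to 4-fold, 79 and 19 at 4 to 16-fold, and 30 and 11 over 16-fold. Whether the bins differ was not tested.

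**Figure D2:**
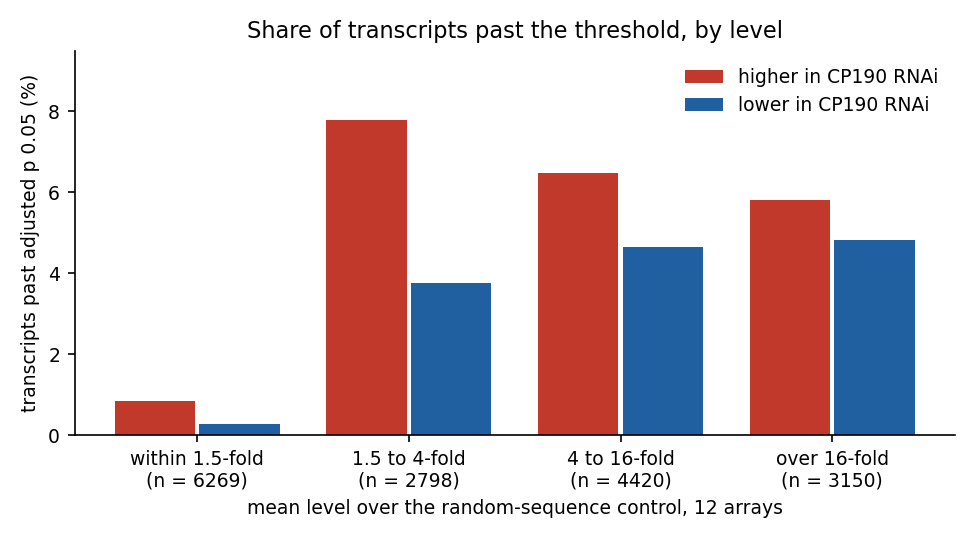
Share of transcripts past the threshold at 0 h (percent) by mean level over the random-sequence control on 12 arrays, with higher calls in red and lower calls in blue. Bars near background reach 0.845% and 0.287%. In this fit, without the replicate block, the higher share exceeds the lower one in all 4 bins.

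Some transcripts crossed the background limit. In 84 of the 740 higher transcripts, both control arrays lay within 1.5-fold of the random-sequence control and both CP190 arrays lay above that limit. The reverse held for 29 of the 481 lower transcripts. The median level in the brighter arm was 1.87-fold over the random-sequence control in the 84 and 1.91-fold in the 29, so most lay just above the limit. At 3 h of 20HE the same pattern was seen in 64 of the 84 and 20 of the 29, and at 48 h in 13 of the 84 and 7 of the 29. At 48 h both arrays of the dimmer arm lay above the limit in 27 of the 84 and 8 of the 29. Levels this close to the limit can lose the pattern by small shifts. The 84 and the 29 were also chosen for the pattern at 0 h, which favours its loss at other times. How many of all transcripts show it at each time was not counted, so the counts at 3 and 48 h are not read as particular to these transcripts.

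A rise above background in both arms and a rise from background are shown by FBtr0083371 and FBtr0083324, the transcripts with the largest difference of each kind. Neither identifier is paired with a gene name here. FBtr0083371 had intensities of 11588 and 6720 in CP190 RNAi cells, against 1618 and 1175 in control RNAi cells. Both CP190 arrays were far above both control arrays, although they differed from each other more than the control arrays did. The difference was 2.68 ± 0.26 on the log2 scale (limma SE; 6.40-fold, adjusted p = 8.53e-05). FBtr0083324 had 3586 and 3896 in CP190 RNAi cells, against 474 and 564 in control RNAi cells. Its control values lay within 1.5-fold of the random-sequence control, where background adds to the signal. The difference was 2.85 ± 0.13 (7.23-fold, adjusted p = 1.73e-06). Background tends to understate it, but the estimate has its own spread and sets no lower bound.

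The matching falls were FBtr0086519 and FBtr0081748, also without a gene name here. FBtr0086519 had 1617 and 1775 in CP190 RNAi cells, against 8735 and 7428 in control RNAi cells. The arms did not overlap, and the log2 difference was -2.25 ± 0.11 (4.76-fold lower, adjusted p = 2.74e-06). FBtr0081748 had 442 and 468 in CP190 RNAi cells, at the level of the random-sequence control, against 1892 and 1703 in control RNAi cells. Its log2 difference was -1.98 ± 0.11 (3.95-fold lower, adjusted p = 2.80e-06). Background tends to understate the size of this fall as well, and the estimate likewise sets no bound. These 4 were chosen from transcripts that passed with and without the replicate block and had arms that did not overlap. Those outcomes were therefore fixed by the choice. Leaving out a 3 h or 48 h array keeps the 0 h difference the same. With no single array left out, all 4 kept their call, with limma adjusted p-values up to 0.0096. Their direction held without any single array.

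The 4 transcripts took different courses under hormone. At 48 h of 20HE, FBtr0083371 reached 25678 and 26173 in CP190 RNAi cells, against 19290 and 21913 in control RNAi cells. The knockdown effect was then 0.33 ± 0.26 (adjusted p = 0.627), a change of -2.34 ± 0.36 against 0 h (adjusted p = 0.00564). The choice of this transcript for its 0 h difference favours a smaller effect at other times. The change between 3 and 48 h, which uses no 0 h mean, was -2.17 ± 0.36 (adjusted p = 0.0090). Its level rose between 3 and 48 h in CP190 RNAi cells by 1.77 on the log2 scale and in control RNAi cells by 3.95. FBtr0083324 had 2720 and 2867 at 48 h in CP190 RNAi cells, against 1609 and 1925 in control RNAi cells. Its knockdown effect was 0.67 ± 0.13 at 48 h (adjusted p = 0.00981), and 2.61 at 3 h. It was likewise chosen for its 0 h difference. The measured changes were -2.19 against 0 h (adjusted p = 1.55e-04) and -1.95 against 3 h (adjusted p = 2.51e-04). They start from control levels near background on 2 arrays at 0 h and 1 at 3 h, so background understates their sizes. Between 3 and 48 h FBtr0083324 had a log2 change of -0.33 in CP190 RNAi cells (adjusted p = 0.0839, or 0.00502 in the blocked fit). In control RNAi cells it rose by 1.62.

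FBtr0086519 had 1623 and 1922 at 48 h in CP190 RNAi cells, against 7229 and 8556 in control RNAi cells. Its effect at 48 h was -2.15 ± 0.11, and the change against 0 h was 0.09 with a 95% interval from -0.26 to 0.45. FBtr0081748 had 439 and 436 at 48 h in CP190 RNAi cells, against 1381 and 1160 in control RNAi cells. Its CP190 levels were near background at both times. Background thus understates the size of the effect of -1.53 at 48 h as well, and no change against 0 h is given.

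**Figure D3:**
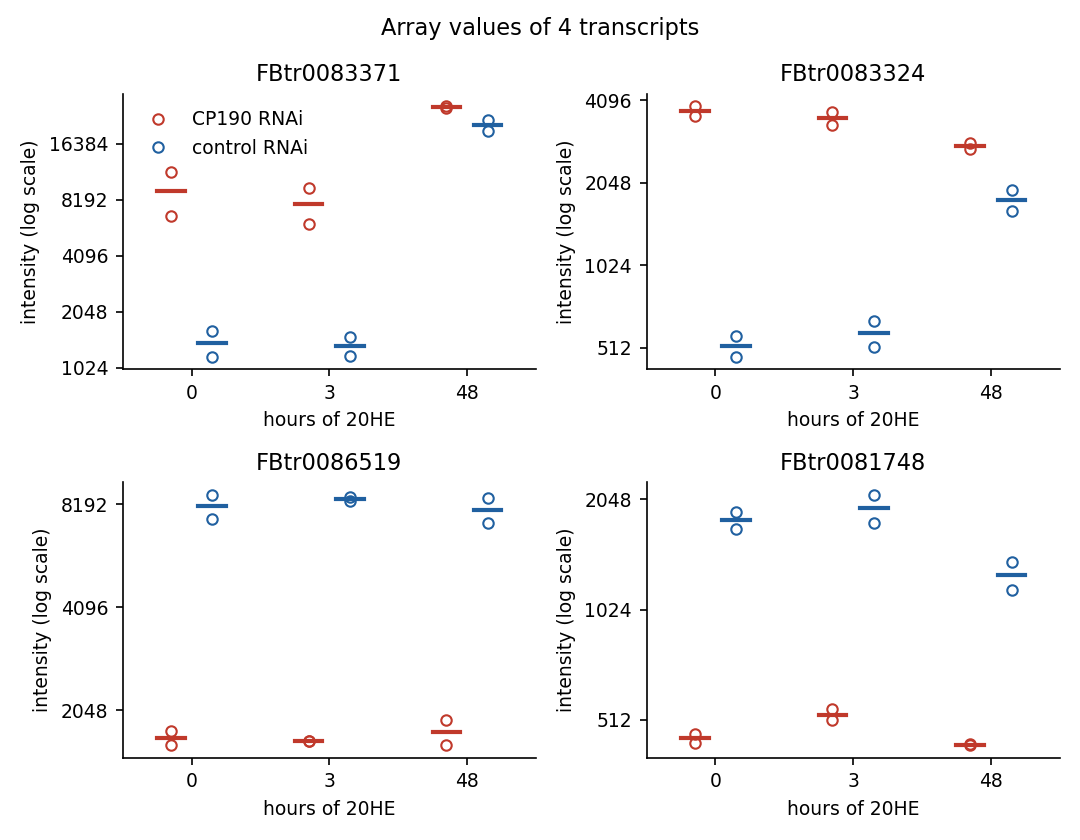
Intensities (log scale) of 4 transcripts at 0, 3 and 48 h of 20HE, with 1 circle per array, a line at the mean of 2 replicates, CP190 RNAi in red and control RNAi in blue. The arms of FBtr0083371 and FBtr0083324 draw together at 48 h, while those of FBtr0086519 stay apart at every time, between 1617 and 1922 in CP190 RNAi and between 7229 and 8735 in control RNAi.

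Among the 16 transcripts with a gene name, 0 passed the test at 0 h, where 7.34% of all transcripts did. An unadjusted p under 0.05 in limma was found for 4 of the 16 and for 20.3% of all transcripts. Their log2 differences lay between -0.28 and 0.22, 9 of them above 0 and 7 below, with a median of 0.02 beside -0.01 over all transcripts. Their 95% intervals lay between -0.52 and 0.52, on a scale that understates differences near background. CG31178, which lies there, had 0.20 as deposited and 0.60 after subtraction of the random-sequence control. In 8 of the 16 the arrays of the arms did not overlap, against 46.2% of all transcripts.

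HDAC3, which encodes a histone deacetylase, had 5317 and 5966 in CP190 RNAi cells, against 6473 and 7266 in control RNAi cells. The arms did not overlap, and the log2 difference was -0.28 ± 0.11 (adjusted p = 0.148, or 0.0173 in the blocked fit). The gene kis, which encodes a chromatin remodeller of the trithorax group, had 15735 and 15483 in CP190 RNAi cells, against 17986 and 18356 in control RNAi cells (-0.22 ± 0.087, adjusted p = 0.174). His4r, a histone H4 gene outside the replication-dependent cluster, had 24740 and 25641 in CP190 RNAi cells, against 27241 and 27778 in control RNAi cells. These 3 genes were the only named members of lists of 10 histone deacetylases, 21 Polycomb and trithorax genes and 10 histones. Of the 3, 0 passed, where 7.34% of all transcripts did, so nothing follows for the lists. SuUR, whose protein slows replication of heterochromatin in polytene cells, had overlapping arms, with 5030 and 5975 in CP190 RNAi cells and 5515 and 4737 in control RNAi cells.

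Both named members of the nutrient-sensing list of 14 genes encode subunits of GATOR2, a complex that activates the TORC1 growth pathway. Of the 2, 0 passed, where 7.34% of all transcripts did. The gene mio had 1675 and 1751 in CP190 RNAi cells, against 2024 and 2084 in control RNAi cells. All CP190 values lay below all control values, by a log2 difference of -0.26 ± 0.081 (adjusted p = 0.0791, or 0.0246 in the blocked fit and 0.0468 on centred arrays). Wdr24 had 1299 and 1371 in CP190 RNAi cells, within the control values of 1268 and 1587 (-0.09, 95% interval -0.37 to 0.19).

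LanA was the named member of the matrix list and alpha-Spec that of the cytoskeleton list, and neither passed. LanA, which encodes a laminin alpha chain of basement membranes, had 46571 and 47405 in CP190 RNAi cells, against 42017 and 41605 in control RNAi cells (0.17 ± 0.077, limma adjusted p = 0.249). The gene alpha-Spec, which encodes a membrane skeleton protein, had 21094 and 19882 in CP190 RNAi cells, against 16612 and 18640 in control RNAi cells (0.22 ± 0.092, adjusted p = 0.201). In both genes the arms did not overlap. LanA lay near the upper end of the intensity range, where the brightest transcripts reached 63071 to 64437 at 0 h, and differences may be compressed there.

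The ubiquitin genes were rdx, which encodes a substrate adaptor of Cul3 ligases, and Uba1, the ubiquitin-activating enzyme. The gene rdx had 9570 and 8706 in CP190 RNAi cells, against 8550 and 7283 in control RNAi cells (0.21 ± 0.14, adjusted p = 0.462). Uba1 had a log2 difference of 0.04 (95% interval -0.13 to 0.20). Transporter genes overlapped between the arms. Fatp1, a fatty acid transport protein gene, averaged 5601 ± 216 in CP190 RNAi cells and 5405 ± 1180 in control RNAi cells (SD, n = 2), and NaPi-III, a phosphate cotransporter gene, averaged 8255 ± 335 in CP190 RNAi cells and 9216 ± 1582 in control RNAi cells. The nucleolar protein gene sle had a log2 difference of -0.13 (95% interval -0.39 to 0.12). CG16974, CG31178 and fend had differences of 0.02, 0.20 and 0.02, the last 2 of them from levels within 1.5-fold of the random-sequence control on most or all arrays at 0 h.

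**Figure D4:**
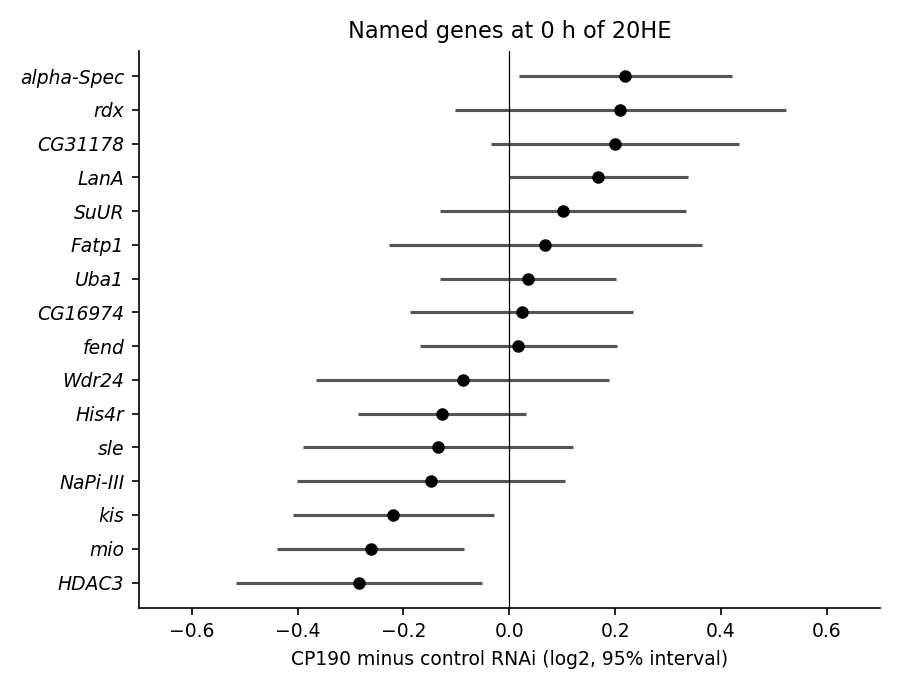
Log2 difference between CP190 RNAi and control RNAi at 0 h for the 16 transcripts with a gene name, as points with 95% intervals from limma. Values run from -0.28 for HDAC3 to 0.22 for alpha-Spec, and 0 of the 16 passed the adjusted threshold.

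The transcripts called at 0 h were then followed at 3 and 48 h. The group means compared there come from other arrays, while the estimate of each transcript's spread is shared by all 12. At 3 h of 20HE, 568 of the 740 higher transcripts were again higher and 216 of the 481 lower ones again lower, against 4.33% and 1.88% of all transcripts. Of all 1221, 1213 had the same sign at 3 h. The median difference of the 740 was 0.61 at 3 h, beside 0.65 at 0 h, and that of the 481 was -0.37, beside -0.46. The choice of these transcripts by their 0 h difference favours smaller medians at other times. Among the 145 that were at least 2-fold higher, 141 passed at 3 h, and among the 44 that were at least 2-fold lower, 39 did. The change of the effect between 0 and 3 h was past the threshold for 0 transcripts in limma, with 64 of the 1221 at an unadjusted p under 0.05, beside 403 of all 16637. With the replicate block it was past the threshold for 3 of the 1221, beside 4 of all transcripts, and 113 of the 1221 had an unadjusted p under 0.05, beside 724 of all. The 403 are 2.42% of all transcripts and the 724 are 4.35%. Without the block the share is thus well below what that threshold gives when nothing changes. That fit may miss changes, and its 0 calls do not show an unchanged effect. Single arrays moved the counts that passed at 3 h. Leaving out CP190 3 h replicate 1 left 338 of the 740 and 81 of the 481 past the threshold at 3 h, and leaving out control 3 h replicate 2 left 355 and 112. Of the 481, 127 passed when CP190 3 h replicate 2 was dropped, 134 when control 3 h replicate 1 was dropped, 339 with the replicate block and 140 after subtraction of the random-sequence control. Fits that share neither arrays nor spread were added after seeing the data. Their samples may still be related across times. Replicate differences of CP190 RNAi at 0 h and at 3 h correlated by 0.608, and separate cultures are not stated. The 4 arrays at 0 h alone gave 416 higher and 137 lower transcripts. Of these, 375 and 97 passed in the same direction in a fit of the 3 h arrays alone, and 164 and 65 in a fit of the 48 h arrays alone. Over all transcripts, the fit at 3 h called 3.92% higher and 1.28% lower, and the fit at 48 h 3.45% higher and 2.13% lower.

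At 48 h the effects were smaller. Of the 740, 203 were again higher, against 3.17% of all transcripts, and of the 481, 114 were again lower, against 2.02%. The median difference was 0.24 among the 740 and -0.20 among the 481, and 1064 of the 1221 had the same sign as at 0 h. With the replicate block 177 of the 481 passed at 48 h, and 70 after subtraction of the random-sequence control. Leaving out CP190 48 h replicate 1 left 125 of the 740 and 69 of the 481. Leaving out a control 48 h array left 120 and 66 (replicate 1) or 131 and 62 (replicate 2). In 260 transcripts the call had the same direction at all 3 times, and 10 were called in the opposite direction at 48 h. Among the 145 at least 2-fold higher, the median was 1.35 at 0 h, 1.30 at 3 h and 0.30 at 48 h. Among the 44 at least 2-fold lower it was -1.18 at 0 h, -1.09 at 3 h and -0.56 at 48 h. All these lists were chosen by the 0 h difference, which favours smaller medians at 3 and 48 h than at 0 h.

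The change of the effect between 3 and 48 h was added after seeing the data. It uses no 0 h group mean, and shares the estimate of the spread. It was below 0 and past the threshold for 110 of the 740 higher transcripts, against 1.15% of all transcripts, and 64 of these were among the 145 changed at least 2-fold. With the replicate block the 110 became 208, and after subtraction of the random-sequence control 49. They became 66 when CP190 3 h replicate 1 was dropped and 65 when control 48 h replicate 2 was dropped. For the 481 lower transcripts, the change was above 0 and past the threshold in 27, against 0.811% of all transcripts. With the replicate block that count was 52, after subtraction it was 15, and it was 17 when CP190 3 h replicate 1 was dropped. The test of 48 h against 0 h, which shares the 0 h arrays with the choice of transcripts, called 194 of the 1221, against 2.18% of all transcripts, 342 with the replicate block and 84 after subtraction. In the fits without shared arrays, the change between 3 and 48 h was below 0 and past the threshold for 111 of the 416 and above 0 and past it for 24 of the 137, against 1.26% and 0.781% of all transcripts. For the 194, dropping CP190 0 h replicate 1 gave 113 and dropping CP190 48 h replicate 2 gave 119. Dropping a control array of 48 h gave 121 (replicate 1) or 108 (replicate 2).

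**Figure D5:**
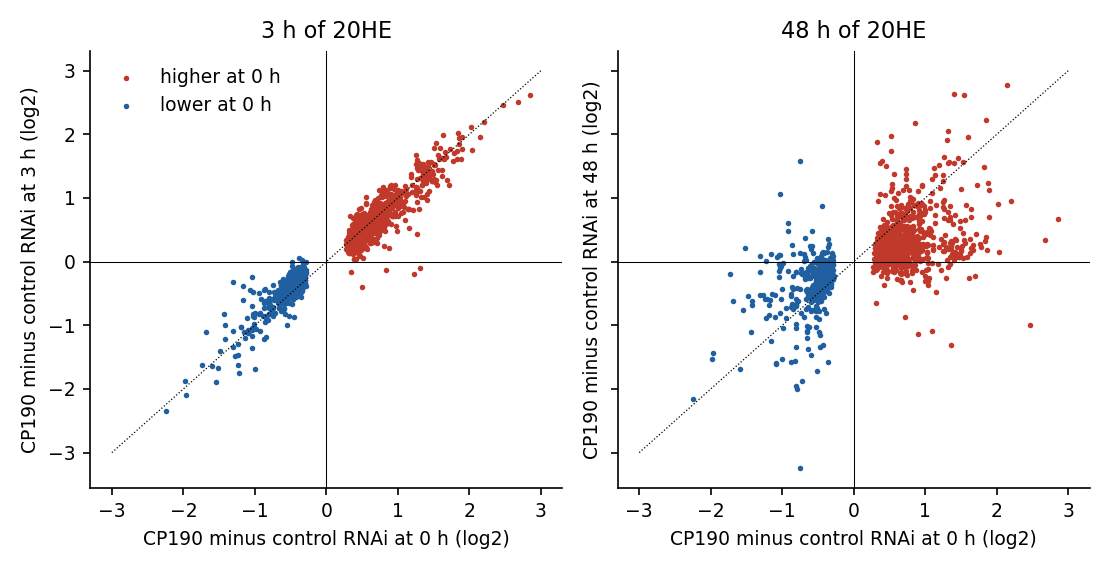
Knockdown effect (log2, CP190 RNAi minus control RNAi) of the 1221 transcripts called at 0 h, at 3 h (left) and 48 h (right) against 0 h, with those higher at 0 h in red, those lower in blue and a dotted line at equal effects. At 3 h 1213 of the points keep their sign and lie near the line, and at 48 h 1064 keep it and many red points lie far below the line. The choice by 0 h values favours smaller effects at other times.

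Among the higher transcripts whose effect shrank between 3 and 48 h, both arms moved. The 110 transcripts had a median intensity of 3722 in CP190 RNAi cells and 1665 in control RNAi cells at 0 h. At 3 h the medians were 3503 in CP190 RNAi cells and 1526 in control RNAi cells, and at 48 h they were 2719 in CP190 RNAi cells and 2611 in control RNAi cells. Between 3 and 48 h, 71 of the 110 fell in CP190 RNAi cells, where 14.2% of all transcripts did, and 64 rose in control RNAi cells, where 13.5% did. Both were seen in 25. Of the 27 lower transcripts whose effect shrank, 18 rose in CP190 RNAi cells, where 12.2% of all transcripts did. In control RNAi cells 12 of the 27 fell and 10 rose, where 15.3% of all transcripts fell and 13.5% rose. These counts describe transcripts chosen for that change and carry no test.

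The hormone contrast in control RNAi cells that uses no 0 h group mean is 48 h against 3 h of 20HE. Over all transcripts, 13.5% rose and 15.3% fell in it, and over the 10368 transcripts with a mean over 1.5-fold above the random-sequence control, 19.6% rose and 23.6% fell. Of the 740 transcripts higher after CP190 RNAi at 0 h, 289 (39.1%) rose and 122 (16.5%) fell, with a median of 0.15 beside -0.04 over all transcripts. Of the 481 lower ones, 106 (22.0%) rose and 172 (35.8%) fell, with a median of -0.14. Rises with hormone in control cells outnumbered falls among the 740, and falls outnumbered rises among the 481. In the fits without shared arrays, 195 of the 416 rose and 70 fell, while 51 of the 137 rose and 49 fell, so the excess of falls did not hold there. The 172 became 112 without control 3 h replicate 2. Among the 145 at least 2-fold higher, 70 rose and 20 fell, and among the 44 at least 2-fold lower, 15 rose and 25 fell. Whether these shares differ from those of other transcripts was not tested.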

How the data were processed

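The authors deposited 1 intensity value per transcript and array on a linear scale, from single-colour (Cy3) NimbleGen arrays with 8 probes per gene per the labels' design text. RMA is named by the submitters' processing notes, with no version; build and annotation release are likewise not given. Values were converted to log2 without pseudocount or filter. Groups were taken from the sample titles. The extraction protocol in the labels also names Mbn2 cells, while all titles name Kc. The model, in limma 3.58.1 under R 4.3.3, held a mean for each of 6 groups on all 12 arrays (lmFit, then eBayes; 6 residual degrees of freedom). Tests were two-sided, with Benjamini-Hochberg adjustment within each contrast and a threshold of 0.05. The random-sequence control was kept out of every test. The script was tested on simulated arrays with no replicate pairing, in which 200 transcripts were changed at 0 h. It recovered 45.5% of them at a log2 change of 0.5, 96.5% at 1 and 99.5% at 2. Of its calls, 3.19%, 6.31% and 7.44% were false at these sizes. Many changes of 0.5 or less can thus go undetected. The number of arrays limits the precision, and 2 arrays against 2 are too few for an exact permutation test of single transcripts.

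The labels number the replicates 1 and 2 in every group. Replicate differences correlated across transcripts between all 15 pairs of groups (0.147 to 0.608), so the numbers were taken to pair the samples. The main fit has no block, so its calls, intervals and p-values leave this pairing out. Values with the replicate block are given where they change a call or move a count by over 1.5 times. What samples of the same number share is not stated.

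Names came from the RefSeq table of the Release 6 assembly, which lists 44 of the identifiers as synonyms. No coordinates or sequences are given, since the build of the array design is unknown. The naming rule took every identifier with 1 gene symbol and, of the others, the largest rise and fall above background in both arms and the largest rise and fall from or to background. Those without a symbol also had to pass with and without the replicate block, with arms that did not overlap. Of 18 gene lists, 9 had a named member, and 0 members passed, where 7.34% of all transcripts did. So few named members tell nothing about the lists. Members, lists and tests were chosen with earlier results of these data known. Alternatives were the replicate block, only the arrays compared, array centring, quantile normalisation, a trended robust prior, a filter on dim transcripts, subtraction of the random-sequence control with a floor of 64, and leaving out each array.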

Additional observations from a re-analysis of the deposited data

Results flagged for a closer look

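For 2 of the named transcripts the knockdown effect differed between 0 and 48 h of 20HE by the test of that difference. The effect of FBtr0083371 changed by -2.34 on the log2 scale and that of FBtr0083324 by -2.19, both toward a smaller excess in CP190 RNAi cells. The second value starts from control levels near background at 0 h, so background understates its size. Both transcripts were chosen for their 0 h difference, which favours a smaller effect at 48 h. Outlying arrays were not looked for, since each group has 2 arrays.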

How the results depend on the processing

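The calls at 0 h, 1221 in all (740 higher, 481 lower), became 2614 (1330 and 1284) with the replicate block, 553 (416 and 137) with only the arrays compared, and 537 to 1452 (397 to 758 and 140 to 694) when single arrays were left out. At least 2-fold calls became 281 higher and 79 lower after subtraction of the random-sequence control, and lay between 123 and 173 higher and 34 and 54 lower without single arrays. Of the 0 h calls, the number whose effect changed from 0 to 48 h was 342 with the block, 84 after subtraction and 108 to 184 without single arrays, and from 0 to 3 h it was 3 with the block, 1 after subtraction and 0 without any single array; these 3 and 1 have no gene name here. The lower transcripts that passed again numbered 339 with the block and 140 after subtraction at 3 h (81 to 235 without single arrays), and 177 and 70 at 48 h (62 to 126). The higher ones that passed again ranged from 338 to 577 at 3 h and from 120 to 207 at 48 h. For 48 h against 3 h, the effect of 208 higher transcripts shrank with the block, 49 after subtraction and 65 to 116 without single arrays, and that of 52, 15 and 17 to 27 lower ones. Lower transcripts that fell with hormone in control cells ranged from 112 to 179 without single arrays. The block changed the calls of HDAC3 and mio among named genes and of no other named transcript at 0 h. Among 380 values of the 20 named transcripts under 19 alternatives, 365 kept direction and side of the threshold, and 4 (HDAC3 with the block; mio with the block, centring and subtraction) came past it. A further 11 turned sign, all of genes with no call. Centring gave CG16974 -0.0038 and fend -0.0097, and quantile normalisation gave fend -0.034. Without single arrays, CG16974 ranged from -0.063 to 0.11, Fatp1 from -0.16 to 0.29, NaPi-III from -0.32 to 0.027, SuUR from -0.023 to 0.23, Wdr24 from -0.25 to 0.074 and fend from -0.037 to 0.071. The causes of these shifts were not tested. Leaving out an array of an arm assumes that the lone array varies like the other groups. Near background, fold differences are understated, and small changes of dim transcripts may go undetected.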

Other observations

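Of the 28 identifiers listed under more than 1 gene, 1 passed at 0 h and 2 passed with the replicate block, against 7.34% and 15.7% of all transcripts. They were named after their values were seen. FBtr0074315, listed for CG32573 and CG42512, had 938 and 968 in CP190 RNAi cells, against 1108 and 1335 in control RNAi cells. Its arms did not overlap, and the log2 difference was -0.35 ± 0.091 (limma adjusted p = 0.0388, or 0.0109 in the blocked fit). At 3 and 48 h of 20HE its differences were -0.16 and 0.02, with adjusted p-values of 0.38 and 0.957. FBtr0074991, listed for CG42374 and the methyltransferase gene Mettl5, had 2523 and 2986 in CP190 RNAi cells, against 3029 and 3872 in control RNAi cells (-0.32 ± 0.13, adjusted p = 0.188, or 0.0173 in the blocked fit). Which of the listed genes gave the signal cannot be told apart.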
